A study of Mus musculus with 6 samples.

Results

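The miR-23, miR-27 and miR-24 microRNAs come from a pair of paralogous clusters, each with a miR-23, a miR-27 and a miR-24 hairpin in that order: the a cluster on chromosome 8 and the b cluster on chromosome 13. The members were chosen by name as the mature products of these hairpins, 10 of the 1907 distinct mature miRNAs in the deposited table, and 0 of the named products were absent from it. Livers of 3 female and 3 male C57BL/6N mice, aged 12 weeks, in normal health and fed a chow diet, were used for small RNA sequencing. The mice were littermates, and the labels do not state which of them shared a litter. The study concerns sex-dependent acute liver injury and the mitochondrial protein SAB, and the comparison of females with males asks how these miRNAs differ before any injury.

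MicroRNAs are cut from hairpin transcripts, and mainly a single strand of the resulting duplex is loaded into Argonaute, where its seed (bases 2 to 8) pairs with target mRNAs. The clusters are known for roles in blood vessel growth and in lipid metabolism. In mouse and human, miR-27 represses the adipogenic receptor gene Pparg, and in human cells miR-24 represses the histone gene H2AX. Each cluster is transcribed as a polycistron, so that its hairpins start from a shared precursor.

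The mature sequences are shown because the split of reads between paralogues, the subject of much of what follows, rests on them. RefSeq (GRCm38.p6) gave a mature sequence for 9 of the 10 members. miR-23b-3p, which occupies chr13:63300529-63300549 on the plus strand, is named only. The 3p products, written 5′ to 3′ with the seed in capitals, were as follows.
miR-23a-3p (chr8:84208563-84208583, plus strand): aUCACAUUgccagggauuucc
miR-27a-3p (chr8:84208727-84208747, plus strand): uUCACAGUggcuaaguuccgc
miR-27b-3p (chr13:63300760-63300780, plus strand): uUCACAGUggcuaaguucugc
miR-24-3p (chr8:84208875-84208896, plus strand, and also made from chromosome 13): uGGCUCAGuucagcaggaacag

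The miR-27 paralogues had the same seed and differed at 1 of 21 bases, C19U from miR-27a-3p to miR-27b-3p, with positions counted from 1 at the 5′ end. A read cut short before that base cannot be assigned to either, and the labels do not say how such reads were handled; miR-23a-3p and miR-23b-3p are near-identical too, so the split of reads within either pair is uncertain. The seeds of miR-23a-3p and miR-27a-3p were the same at 6 of 7 positions and differed by U7G. Among the miRNAs of the table with a RefSeq sequence, no other carried the miR-23a-3p seed. miR-23b-3p had no such sequence, so its seed was not compared. The miR-27 seed occurred in the miR-27 pair alone. The miR-24-3p seed was shared by 4 others, miR-5124b, miR-6369, miR-6410 and miR-6413, which summed to 2 to 5 counts each over all 6 libraries and were too low to test.

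The 5p products, from the opposite strand of each duplex, differed far more between paralogues. miR-27a-5p and miR-27b-5p differed at 8 of 22 bases, 1 of them inside the seed (G3A).
miR-23a-5p (chromosome 8): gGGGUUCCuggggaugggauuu
miR-23b-5p (chromosome 13): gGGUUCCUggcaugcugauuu
miR-27a-5p (chromosome 8): aGGGCUUAgcugcuugugagca
miR-27b-5p (chromosome 13): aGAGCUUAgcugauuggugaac
miR-24-2-5p (chromosome 8): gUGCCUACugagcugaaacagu
miR-24-1-5p (chromosome 13, no member but from the same cluster): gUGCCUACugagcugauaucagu

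The miR-24 hairpins are shown with the sequences of both arms in capitals, because their 3p arms are identical and only their 5p arms tell the loci apart.
Mir24-2 (chr8:84208815-84208921, plus strand): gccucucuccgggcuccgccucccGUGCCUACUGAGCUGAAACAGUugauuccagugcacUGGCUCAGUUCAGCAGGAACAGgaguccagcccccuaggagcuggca
Mir24-1 (chr13:63301208-63301275, plus strand): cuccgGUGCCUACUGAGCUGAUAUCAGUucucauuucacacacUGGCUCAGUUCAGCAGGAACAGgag

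The a cluster spans 404 bases, from 84208518 to 84208921 on chromosome 8 (mm10, plus strand), and the b cluster 792 bases, from 63300484 to 63301275 on chromosome 13, plus strand. By GENCODE M21, on that build, the a cluster lay in no protein-coding gene, and its last 2 bases overlapped the lincRNA Gm26532, which begins at 84208920. The b cluster lay inside the protein-coding gene 2010111I01Rik, which RefSeq calls Aopep, an aminopeptidase gene. Its Mir23b hairpin overlapped no annotated exon of that gene, whereas Mir27b and Mir24-1 were each contained in 1 annotated exon of it. Fancc runs over the b cluster on the minus strand with no exon there.

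**Figure D1:**
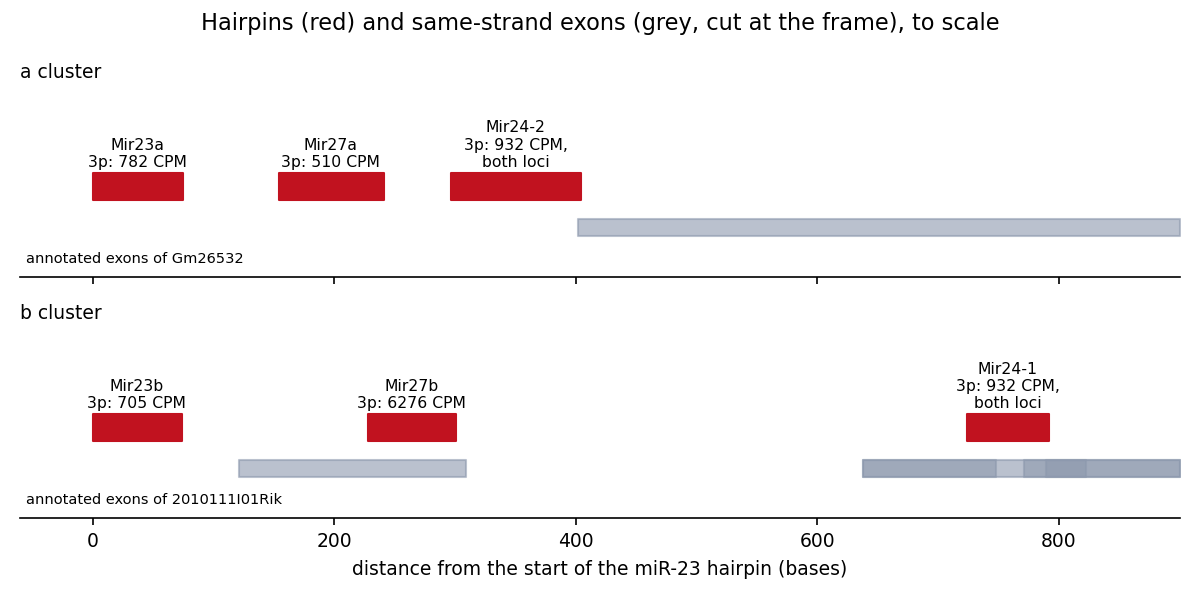
The hairpins of the a and b clusters and the annotated same-strand exons, drawn to scale by distance in bases from the start of each miR-23 hairpin; labels give the mean level of the 3p product over 6 libraries in counts per 1000000 (CPM). Mir27b, with 6276 CPM of its 3p product, lies within an exon of 2010111I01Rik, and the 932 CPM of miR-24-3p belong to both loci together.

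Libraries held 5756419, 3506852 and 3285249 counts in females and 6426337, 4617645 and 16444675 in males, so 1 count stood for 0.0635 to 0.285 counts per 1000000 (CPM, on TMM-adjusted library sizes). The labelled tissue carried its defining markers: the 7 hepatocyte markers, miR-122-5p among them, summed to 396004 to 399104 CPM in females and 421241 to 466189 CPM in males. In bulk liver, fewer cells of a type and less RNA per cell cannot be told apart. The p-values below measure the spread between these 6 animals. Levels of different miRNAs are compared in CPM, with no correction for length since all are of nearly equal length, and the ease with which a sequence is ligated and copied also enters such comparisons.

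miR-27b-3p was by far the most abundant of the 10. It stood at 6179, 6807 and 6855 CPM in the female libraries and at 5817, 5853 and 6145 CPM in the male libraries. On the TMM-adjusted library sizes its groups did not overlap, as in 21.6% of all tested miRNAs. Every female library lay above every male library, the closest pair being 6179 and 6145 CPM. It took 65.9 to 69.7% of the members' counts in a library and was 21st of 1907 miRNAs by mean level, and the 10 members together held 0.944, 1.01 and 1.06% of all counts in females and 0.868, 0.789 and 0.881% in males.

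miR-24-3p came next, 53rd in the table, at 877.7, 946.1 and 984.5 CPM in females and 941.5, 901.9 and 941.1 CPM in males, and the female range enclosed the male one. miR-23a-3p ranked 56th, at 750.4, 721.9 and 779.8 CPM in females and 836.9, 775.0 and 830.8 CPM in males. The groups overlapped narrowly, with the highest female library above the lowest male library. miR-23b-3p ranked 60th, at 704.5, 723.6 and 775.5 CPM in females and 667.2, 656.0 and 702.1 CPM in males. Its groups did not overlap on the TMM-adjusted library sizes, again by a small gap between the nearest libraries. miR-27a-3p ranked 68th, at 457.5, 558.3 and 514.1 CPM in females and 555.1, 402.9 and 574.1 CPM in males, where male replicate 2 was the lowest of all 6 libraries.

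**Figure D2:**
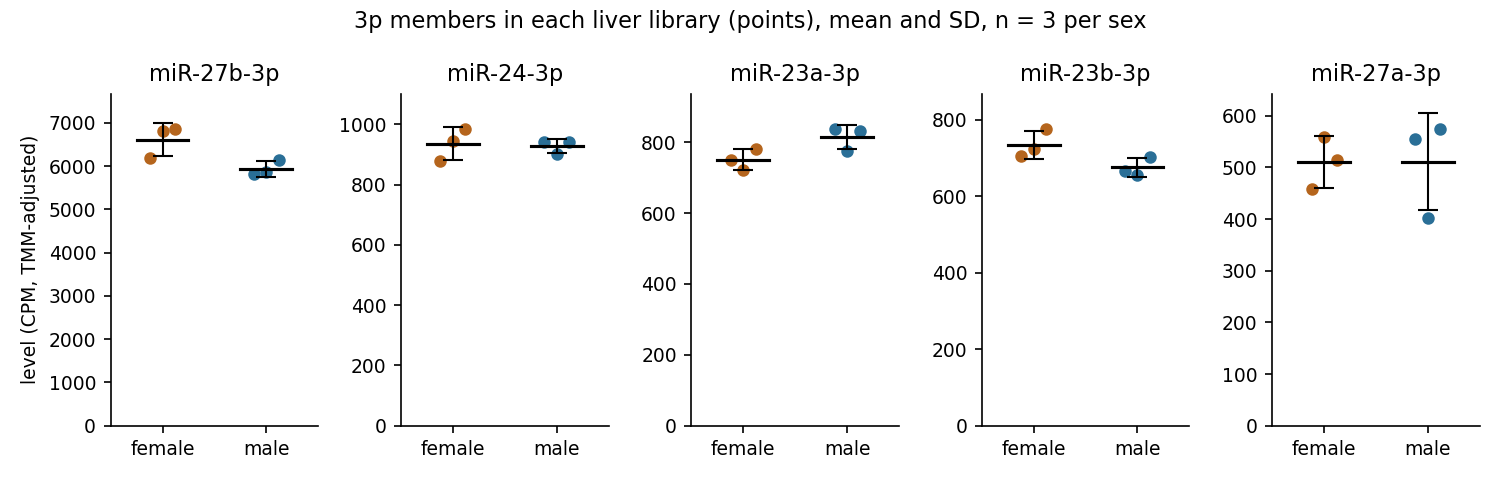
Level in CPM of the 5 members from 3p arms in each library, with female libraries left of male libraries, the mean as a bar and the SD as a whisker (n = 3 each). The female points of miR-27b-3p and miR-23b-3p lie just above the male points, and those of miR-24-3p, miR-23a-3p and miR-27a-3p overlap with them.

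The 5 members from 5p arms were rare, at no more than 7.32 CPM in any library. miR-27a-5p was the highest of them, at 5.95, 5.54 and 3.14 CPM in females and 6.33, 7.32 and 4.89 CPM in males. miR-23b-5p lay between 0.661 and 2.28 CPM, miR-24-2-5p between 0.317 and 1.42 CPM and miR-27b-5p between 0.472 and 1.71 CPM. These 3 rest on 2 to 21 counts in a library. miR-23a-5p had 1 count in female replicate 3, 1 in male replicate 3 and none in the other 4 libraries, where a count of 0 allows up to 0.475 to 0.830 CPM.

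The order by mean level was miR-27b-3p, miR-24-3p, miR-23a-3p, miR-23b-3p, miR-27a-3p, miR-27a-5p, miR-23b-5p, miR-27b-5p, miR-24-2-5p and miR-23a-5p. Neighbours in this order were compared within libraries on log2(count + 1) values with an exact two-sided sign-flip permutation test, whose smallest p over 6 libraries is 0.03125. The order was taken from the same 6 libraries, so these tests describe it and are no separate evidence for it. Of the 9 neighbour pairs, 6 had the same member higher in 6 of 6 libraries (adjusted p = 0.0469 over the 9 pairs, exact test). Of the other 3 pairs, miR-23a-3p lay above miR-23b-3p in 5 of 6 libraries (mean log2 difference 0.15, SD 0.14, n = 6; exact p = 0.0625, adjusted p = 0.0804). The exact test also did not separate miR-23b-5p from miR-27b-5p (adjusted p = 0.492) or miR-27b-5p from miR-24-2-5p (adjusted p = 0.938).

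The balance between the a and b clusters was not the same for miR-27 as for miR-23. The ratio of miR-27b-3p to miR-27a-3p was 13.5, 12.2 and 13.3 in females and 10.5, 14.5 and 10.7 in males. All 6 libraries thus held more than 10 times as much of the b product as of the a product, with a mean log2 ratio of 3.63 (SD 0.19, n = 6; exact two-sided sign-flip p = 0.03125, the smallest that 6 libraries allow). The ratio of miR-23b-3p to miR-23a-3p was 0.939, 1.002 and 0.995 in females and 0.797, 0.846 and 0.845 in males, with a mean log2 ratio of -0.15 (SD 0.14, n = 6; exact p = 0.0625). The b product was therefore above the a product in 1 of 6 libraries for miR-23, against 6 of 6 for miR-27. The scarce 5p counts, summed over libraries, went the other way in both families. They were 215 for miR-27a-5p against 38 for miR-27b-5p, and 2 for miR-23a-5p against 48 for miR-23b-5p.

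Within a cluster the counts of the mature products were unequal. The ease with which each sequence is ligated and copied also enters these ratios, and its part was not tested. In the b cluster miR-27b-3p exceeded miR-23b-3p by a nearly constant factor of 8.77, 9.41 and 8.84 in females and 8.72, 8.92 and 8.75 in males (SD of the log2 ratio 0.04, n = 6). In the a cluster the order was the opposite, and miR-27a-3p stood at 0.610, 0.773 and 0.659 times miR-23a-3p in females and 0.663, 0.520 and 0.691 times in males (SD of the log2 ratio 0.19, n = 6). The ratio within the a cluster thus varied more over libraries than that within the b cluster, and the lowest ratio came from male replicate 2. miR-24-3p, with its pair of loci, stood at 1.125 to 1.31 times miR-23a-3p.

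The share of the a paralogue in miR-23 reads was lower in females than in males in every pairing of a female with a male library, although the test could not pass the threshold. miR-23a-3p made up 51.6, 49.9 and 50.1% of the miR-23a-3p and miR-23b-3p counts in females and 55.6, 54.2 and 54.2% in males, with 95% Wilson intervals of at most 1.36 percentage points to either side. The 2 miR-23 products were thus close to even in female liver, and miR-23a-3p led in each male library. The mean was 50.6 ± 0.893% in females and 54.7 ± 0.845% in males (SD, n = 3 each), a difference of -4.11 percentage points. The two-sided exact permutation p was 0.1, which is the lowest possible with 3 animals a sex, and it was 0.4 after adjustment over the 6 shares and arm ratios compared between the sexes.

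The corresponding share of miR-27a-3p in miR-27 reads overlapped between the sexes. It was 6.89, 7.58 and 6.98% in females and 8.71, 6.44 and 8.54% in males, with Wilson intervals of at most 0.318 percentage points to either side. Male replicate 2 lay below all females and the other 2 males above them. The mean was 7.15 ± 0.375% in females and 7.90 ± 1.27% in males (SD, n = 3 each; difference -0.75 percentage points, exact permutation p = 0.4, adjusted p = 0.6). The difference was -1.48 percentage points without male replicate 2, -0.34 without male replicate 1 and -0.43 without male replicate 3. These shares compare counts within a library and so do not depend on how libraries are scaled. The intervals hold counting error alone. They are too narrow if PCR copies of a molecule were counted as separate reads, and the use of molecular identifiers is not stated.

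**Figure D3:**
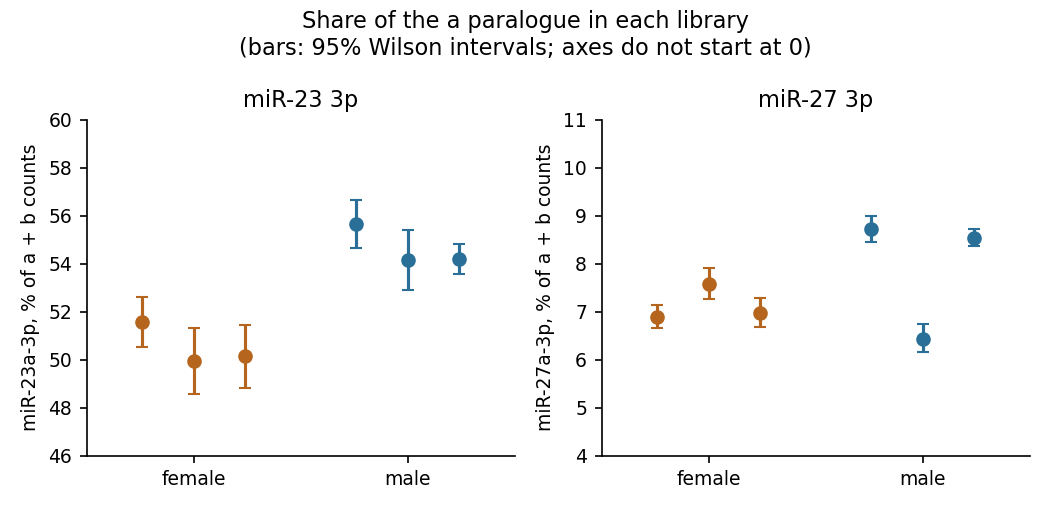
Share of the a paralogue, in percent of a plus b counts, in each library with its 95% Wilson interval, for miR-23 and for miR-27, female libraries on the left. The female miR-23 shares, 49.9 to 51.6%, lie below the male shares, 54.2 to 55.6%, and the miR-27 shares overlap.

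Of the 10 members, 6 passed the filter on low counts and could be tested between female and male liver, and 0 of these 6 passed an adjusted p of 0.05 in edgeR's quasi-likelihood test, against 25 of all 370 tested miRNAs, or 6.76%. At an unadjusted p under 0.05 there were also 0 of 6 members and 67 of 370 tested miRNAs, and the DESeq2 Wald test called 0 members too. Groups that did not overlap were seen in 2 of the 6 tested members, miR-27b-3p and miR-23b-3p, and in 21.6% of all tested miRNAs. The median log2 fold change, female over male, was 0.0044 over the 6 tested members and -0.0096 over all tested miRNAs. The median absolute log2 fold change was 0.12 over the 6 and 0.20 over all.

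The largest value relative to its error was that of miR-27b-3p. Its mean was 6613 ± 377 CPM for females, against 5938 ± 180 CPM for males, where ± is the SD over 3 libraries, or 1.11 times as high (log2 fold change 0.16, SE 0.09, adjusted p = 0.411, edgeR). miR-23b-3p, its neighbour in the b cluster, averaged 734.5 ± 36.8 CPM in females and 675 ± 24.01 CPM in males (log2 fold change 0.12, SE 0.12, adjusted p = 0.688, edgeR). Both b products were thus at slightly higher levels in the female libraries, without passing the test.

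The a products had values at or below 0. miR-23a-3p averaged 750.7 ± 28.9 CPM in females and 814 ± 34.1 CPM in males, with a log2 fold change of -0.12 (SE 0.12, adjusted p = 0.694, edgeR) that was 0.02 with no TMM factor. miR-27a-3p averaged 510.0 ± 50.5 CPM in females and 511 ± 93.9 CPM in males, with a log2 fold change of -0.0033 (SE 0.16, adjusted p = 0.995, edgeR) that was 0.13 with no TMM factor. Relative to its mean, miR-27a-3p had the widest spread over libraries among the 3p members, and without male replicate 2 its log2 fold change was -0.15. miR-27a-5p averaged 4.87 ± 1.52 CPM in females and 6.18 ± 1.22 CPM in males (log2 fold change -0.27, SE 0.31, adjusted p = 0.724, edgeR). With 1 library left out this value lay between -0.48 (without female replicate 1) and -0.05 (without female replicate 3).

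miR-24-3p, which both clusters make, was the closest to even between the sexes in CPM after miR-27a-3p. It averaged 936 ± 54.1 CPM in females and 928 ± 22.8 CPM in males, with a log2 fold change of 0.01 (SE 0.12, adjusted p = 0.966, edgeR) that was -0.08 with upper-quartile factors. The scaling moved the median log2 fold change of all tested miRNAs from -0.01 to 0.13 with no TMM factor and to -0.10 with upper-quartile factors. Relative to that median, the log2 fold change was 0.16, 0.17 and 0.16 for miR-27b-3p, 0.13 in each for miR-23b-3p and -0.11 in each for miR-23a-3p, with TMM, no factor and upper-quartile factors in turn.

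**Figure D4:**
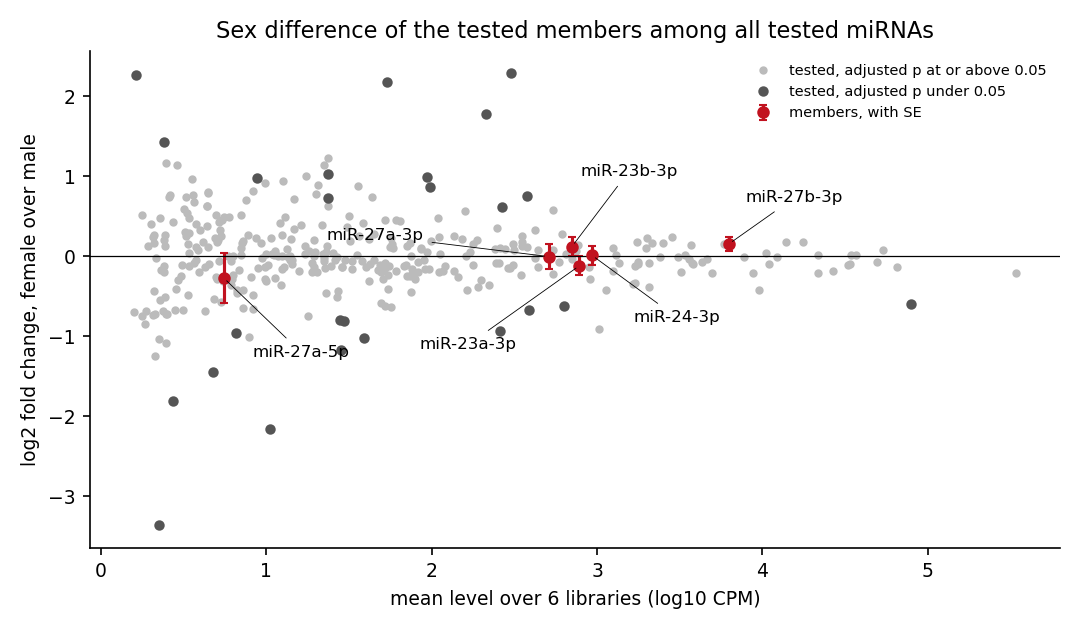
Log2 fold change, female over male, against the mean level (log10 CPM) of the 370 tested miRNAs, with the 6 tested members in red and their SE as bars. The members lie between -0.27 and 0.16, and all 25 miRNAs past the threshold, drawn in dark grey, are other miRNAs.

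Apart from miR-27a-3p, the abundant members varied little from animal to animal. The coefficient of variation over all 6 libraries was 4.01% for miR-24-3p, 5.73% for miR-23a-3p, 6.07% for miR-23b-3p, 7.24% for miR-27b-3p and 13.2% for miR-27a-3p. The median over the 83 tested miRNAs with a mean of at least 300 CPM was 11.3%. Among these 83, 3 had a smaller value than miR-24-3p, 9 than miR-23a-3p, 12 than miR-23b-3p and 18 than miR-27b-3p, whereas 50 had a smaller value than miR-27a-3p.

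The 3p arm dominated every hairpin, and in the deposited counts the degree differed between paralogues. Summed over libraries, the 5p arm made up 1.01% of both arms' counts in females and 1.03% in males for miR-27a (95% exact intervals 0.781 to 1.28% and 0.870 to 1.21%). For miR-27b it made up 0.0186% in females and 0.0139% in males (0.0106 to 0.0302% and 0.0087 to 0.0210%). The intervals of miR-27a and miR-27b did not meet in either sex, but they treat reads as the units and leave out the spread between animals. miR-27a, with 20840 counts of 3p product against 244308, gave 215 counts of 5p product where miR-27b gave 38. The shares rest on the split of 3p reads between the paralogues, which is uncertain. For miR-23b the 5p share was 0.166% in females and 0.177% in males (0.0951 to 0.270% and 0.121 to 0.250%). For miR-23a it rested on 1 count in each sex, 0.0101% in females and 0.0046% in males (0.00026 to 0.0563% and 0.00012 to 0.0257%).

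The arm balance of miR-27a, miR-27b and miR-23b overlapped between the sexes, and no test of it passed the threshold, which 3 libraries against 3 cannot reach. The mean log2 ratio of 3p to 5p, with 1 count added to each, was 6.68 ± 0.51 in females and 6.34 ± 0.56 in males for miR-27a and 12.1 ± 0.34 in females and 12.7 ± 0.33 in males for miR-27b (SD, n = 3 each; exact two-sided permutation p = 0.5 and 0.2). It was 9.002 ± 0.75 in females and 9.02 ± 0.41 in males for miR-23b (exact p = 1.0). With 1 library left out the difference, female minus male, lay between 0.04 and 0.60 for miR-27a, between -0.70 and -0.35 for miR-27b and between -0.39 and 0.36 for miR-23b. With at most 1 count of miR-23a-5p in a library, a difference in arm balance of miR-23a was not detectable at this depth.

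**Figure D5:**
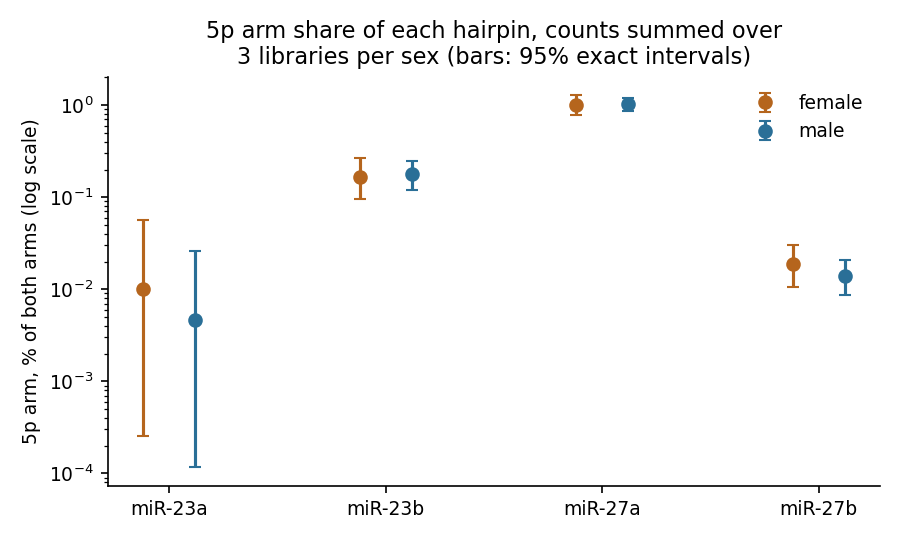
The 5p arm's share of both arms' counts, in percent on a log scale, for each hairpin with its own 3p product, with counts summed over 3 libraries for females (left of each pair) and males; bars are 95% exact intervals. The miR-27a hairpin stands at about 1%, and miR-23b and miR-27b lie lower in that order. The miR-23a share rests on 1 count in each sex, and its wide intervals overlap those of miR-27b.

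The miR-24 loci could be told apart only by their 5p arms, which were scarce. miR-24-2-5p of the a cluster had 8, 3 and 4 counts in females and 2, 6 and 16 in males. miR-24-1-5p of the b cluster had none in the 3 female libraries and 3, 1 and 5 in the male libraries. A count of 0 in the females allows up to 0.496, 0.830 and 0.855 CPM by library. These bounds lie above the male levels of 0.236 to 0.475 CPM, so no female library by itself shows a lower level. The groups of miR-24-1-5p did not overlap, but its counts were too low for the test between the sexes. A bound for the summed female libraries was not computed, so a sex difference was not tested. The a cluster gave 15 of the 15 counts of miR-24 5p arms in females and 24 of 33 in males. The male libraries were uneven, at 2 of 5, 6 of 7 and 16 of 21 counts.

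The strand opposite the miR-24 hairpins carries the Mir3074 hairpins, whose miR-3074-5p lies antisense to miR-24-3p. The deposited estimates of miR-24-3p and miR-3074-5p were fractional in the same 4 libraries, female replicate 1 and all 3 males, and miR-24-3p held the only fractional values among the members. In those libraries miR-24-3p was given as 5313.66, 5947.52, 3819.45 and 14814.7 counts and miR-3074-5p as 9.29, 7.36, 1.51 and 11.7. How reads were divided between the strands is not stated, so the values of this antisense product are uncertain. miR-3074-1-3p had 1 rounded count, in female replicate 2, and miR-3074-2-3p had none.

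The miRNAs nearest to each cluster's profile over the 6 libraries were found by the root mean square difference of log2 CPM, each miRNA centred on its own mean. For the mean profile of miR-23a-3p and miR-27a-3p these were let-7g-5p (0.043 log2 units), miR-365-3p (0.055), miR-98-5p (0.058), miR-362-3p (0.067) and let-7c-2-3p (0.072). For the mean profile of miR-23b-3p and miR-27b-3p they were miR-152-3p (0.040), miR-192-5p (0.078), miR-340-5p (0.078), miR-148b-3p (0.080) and miR-194-5p (0.082). The median over the tested non-members was 0.30 for the a profile and 0.29 for the b profile. A constant level would differ by 0.109 from the a profile and by 0.085 from the b profile, so that a small difference also marks miRNAs that varied little. This holds above all for the b profile, where miR-152-3p alone was far below that value. miR-192-5p, an abundant hepatocyte miRNA, was nearly constant and was not low in male replicate 2, where the b profile was lowest. The a and b profiles differed from each other by 0.13.

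Other miRNAs linked to the processes these clusters are known for were read from the same fit. Of 19 tested miRNAs of liver lipid metabolism, 2 were higher in females, miR-34a-5p (log2 fold change 1.78) and miR-223-3p (0.62), and 1 was lower, miR-21a-5p (-0.60), with a list median of 0.02. The most abundant of the list, miR-122-5p, had a log2 fold change of -0.21 (adjusted p = 0.0530, edgeR). These 3 of 19 stand beside 6.76% of all tested miRNAs. Of 18 tested angiogenic miRNAs 0 passed in either direction, with a median of -0.08, and their most abundant members were miR-16-5p (0.08) and miR-126a-3p (-0.07).

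Markers of other liver cells are given because the clusters are also expressed outside hepatocytes, and their part in the members' values was not tested. The 2 endothelial markers, both arms of miR-126a (log2 fold change -0.07 for miR-126a-3p and 0.02 for miR-126a-5p), summed to 67777 to 71815 CPM in females and 68763 to 76034 CPM in males, and 0 of 2 passed. The 7 leukocyte markers summed to 4487 to 5068 CPM in females and 3363 to 4826 CPM in males, all 7 had positive log2 fold changes and 1, miR-223-3p, passed. Their most abundant members were miR-142a-3p (0.24) and miR-142a-5p (0.58). The 8 stromal markers summed to 8967 to 11495 CPM in females and 12182 to 12862 CPM in males, 0 had a positive value and 0 passed, with miR-143-3p (-0.21) and miR-199a-3p (-0.38) the most abundant. The 4 erythroid markers, led by miR-486a-5p (0.03) and miR-144-5p (0.13), summed to 223 to 378 CPM in females and 235 to 275 CPM in males, and 4 of 4 values were positive. The 6 biliary and epithelial markers, led by miR-31-5p (-0.13) and miR-200a-3p (-0.22), summed to 1575 to 1774 CPM in females and 1698 to 1994 CPM in males, and 0 of 6 values were positive. In both lists 0 passed. Of the hepatocyte markers 2 of 7 passed, both arms of the miR-802 hairpin, with log2 fold changes of 2.29 (miR-802-5p) and 2.18 (miR-802-3p). These counts of markers that passed stand beside 6.76% of all tested miRNAs. The dominant hepatocyte marker, miR-122-5p, averaged 315840 CPM in females and 364079 CPM in males (log2 fold change -0.21). Its groups did not overlap, as in 21.6% of all tested miRNAs. miR-192-5p had a log2 fold change of 0.02. None of these markers was at 0 in all libraries.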

How the data were processed

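The authors deposited estimated counts of reads per mature miRNA, not normalised; per the submitters' processing notes Partek, Bowtie and mm10 were used (no versions listed). Trimming, the treatment of multiply matching reads and any molecular identifiers are not stated. Of 2045 rows, 138 exact repeats were left out. End positions are the stop value minus 1, which matched RefSeq for 1613 of 1617 positions. Counts were rounded (98.9% were whole) and tested with edgeR 4.0.16 in R 4.3.3: TMM, filterByExpr (minimum count 10, minimum total 15), robust quasi-likelihood fit, Benjamini-Hochberg adjustment over 370 miRNAs, threshold 0.05. The SE given with edgeR values was derived as the absolute log2 fold change divided by the square root of the quasi-likelihood F statistic. The fit was tested on simulated data. CPM uses TMM-adjusted library sizes; shares and ratios use counts. Other scalings, filters and tools (limma 3.58.1, DESeq2 1.42.0) and leaving out each library were tried. Replicate numbers follow accession order and pair no animals. Sample titles number the males before the females, so that order and sex cannot be told apart. Named were all members, the other products of the hairpins, miRNAs sharing a seed, the 5 closest in profile per cluster, and of each list called and most abundant members. Members and lists were chosen with earlier results of these data known.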

Additional observations from a re-analysis of the deposited data

How the results depend on the processing

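Over the 14 alternative fits 0 members passed, and the lowest adjusted p of a member was 0.0798 (miR-27b-3p with no TMM factor, edgeR). Of 83 values of single members, 72 kept direction and side and 11 changed sign. These were, with no TMM factor, miR-23a-3p at 0.022 and miR-27a-3p at 0.13, and miR-24-3p at -0.081 with upper-quartile factors and -0.0029 with a filter minimum of 50 counts. When a library was left out, miR-27a-3p ranged from -0.15 to 0.087 and miR-24-3p from -0.023 to 0.039. The count of 25 calls was 13 with the filter of 50 counts, where fewer miRNAs were tested, and 9 to 32 without a library. The low counts of 9, 10 and 12 came from fits that left out female replicate 2, female replicate 3 and male replicate 3 in turn. The log2 ratio of miR-27b-3p to miR-27a-3p ranged from 3.58 to 3.68 without a library, with p = 0.0625, the smallest 5 libraries allow in the exact test. The sex difference in the arm ratio of miR-23b changed sign, to 0.022 with 0.5 counts added, and ranged from -0.39 to 0.36 without a library. Without a library the same difference was 0.04 to 0.60 for miR-27a and -0.70 to -0.35 for miR-27b. For miR-23a it was -1.36 to -0.49, which cannot be read as a sex difference, since miR-23a-5p had at most 1 count in a library. The miR-23 share difference stayed between -4.63 and -3.63 percentage points without a library and was -3.80 with counts summed. For the other changes the cause was not tested. No paired analysis was possible because the labels do not state which mice shared a litter. Depth limits the 5p members.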
